A study of Mus musculus with 7 samples.

Results

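Interferon-stimulated genes are the antiviral and signalling genes that cells switch on when interferon binds its receptor. The members examined here are 37 named genes of this kind, listed by symbol with earlier results of these data known. Each was read from the brightest probe set that the platform annotation assigns to that symbol alone, where a probe set is the group of array probes summarised into 1 value. Of the 37, 35 had such a probe set, out of 22180 genes on the array, and 34 were bright enough to be tested. Gbp2 shares its probe set with Gbp2b and Ifi44 had no probe set of its own name, so neither was analysed here.

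RNA came from vascular fragments of the brain, which are pieces of small vessels with the cells attached to them. All mice were female, of the strain C57BL/6N per the design text and C57BL/6 per the sample labels, and 12 weeks old. They had received either PDGF-CC, a growth factor acting on the receptor PDGFR-alpha, or phosphate-buffered saline (PBS) by injection into the cerebral ventricles (ICV), and were killed 4 hours later. PDGF-CC was measured on 4 arrays and PBS on 3, with 10 ng of total RNA amplified for each, and the labels name no other genotype, agent or untreated group. Separate mice behind the samples are not stated there, so p-values rest on the spread among these arrays, some of which could be technical.

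Interferons are released by cells that sense foreign or misplaced nucleic acid, and they act through receptors that signal by Jak kinases to Stat factors. Type I interferons act on genes through a DNA element called the interferon-stimulated response element (ISRE). Interferon gamma acts through another, the gamma-activated site (GAS). In the brain, endothelial cells and microglia both carry the receptors and keep some of these genes active at rest.

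Promoter stretches are shown because these elements are what the members are known to share. They are RefSeq sequences of the assembly GRCm38.p6, matched by symbol, and 27 of the 37 members had an entry. The windows ran from 250 bases before to 50 bases after a transcription start, and both strands were searched for GAAA, any 2 bases and GAAA again (the ISRE core) and for TTCNNNGAA (the GAS core, where N is any base). Capitals mark the matches of the core named, and each stretch lies wholly upstream of the start and is written along the gene's strand.
Isg15, ISRE core, chr4:156200862-156200921, minus strand: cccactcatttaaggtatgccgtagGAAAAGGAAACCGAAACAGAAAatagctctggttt
Ifit1, ISRE core, chr19:34640760-34640819, plus strand: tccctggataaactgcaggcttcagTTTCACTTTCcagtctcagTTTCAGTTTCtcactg
Ifit3, ISRE core, chr19:34583348-34583407, plus strand: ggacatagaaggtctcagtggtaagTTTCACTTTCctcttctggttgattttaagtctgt
Rsad2, ISRE core, chr12:26456538-26456597, minus strand: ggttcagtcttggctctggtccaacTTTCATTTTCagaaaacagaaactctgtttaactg
Bst2, ISRE core, chr8:71537568-71537627, minus strand: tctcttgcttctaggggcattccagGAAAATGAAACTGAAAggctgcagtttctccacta
Irf1, GAS core, chr11:53769899-53769958, plus strand: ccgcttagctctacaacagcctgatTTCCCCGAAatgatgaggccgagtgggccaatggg
Irf8, GAS core, chr8:120736162-120736221, plus strand: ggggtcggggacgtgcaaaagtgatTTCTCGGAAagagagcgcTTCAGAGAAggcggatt

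In Isg15, 3 overlapping ISRE cores begin 78 bases before the start, and in Ifit1 the first of 2 lies at 104 bases, on the opposite strand, where the core reads TTTC, any 2 bases and TTTC. Of the 27 members, 15 held an ISRE core in some window, or 55.6%, against 3.99% of the 27025 genes with an entry. The GAS core was found in 7 members, or 25.9%, against 9.55% of those genes. Irf8 held 2 GAS cores and Irf1 held 1, and neither had an ISRE core in its windows. These are matches of letters within short windows and were not measured as binding.

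Across the members, most values were slightly lower after PDGF-CC, and none of the differences passed the test. Of the 34 tested members, 30 had a negative difference and 4 a positive one, while 51.6% of all 17734 tested probe sets were negative. The median difference of the members was -0.12 on the log2 scale (PDGF-CC minus PBS), and that of all tested probe sets was -0.0038. By limma with Benjamini-Hochberg adjustment over all probe sets, 0 of 34 members were called at 0.05, and percent called over all probe sets was 0. The smallest adjusted p of a member was 0.769. At an unadjusted p under 0.05, 2 members were lower, Ifit2 and Rsad2, and 1 was higher, Irf8, against 3.41% of all probe sets lower and 2.63% higher. For 4 members, Irf8, Zbp1, Mx2 and Gbp4, the 95% interval of the difference reached 1.5-fold, as it did for 11.7% of all probe sets.

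**Figure D1:**
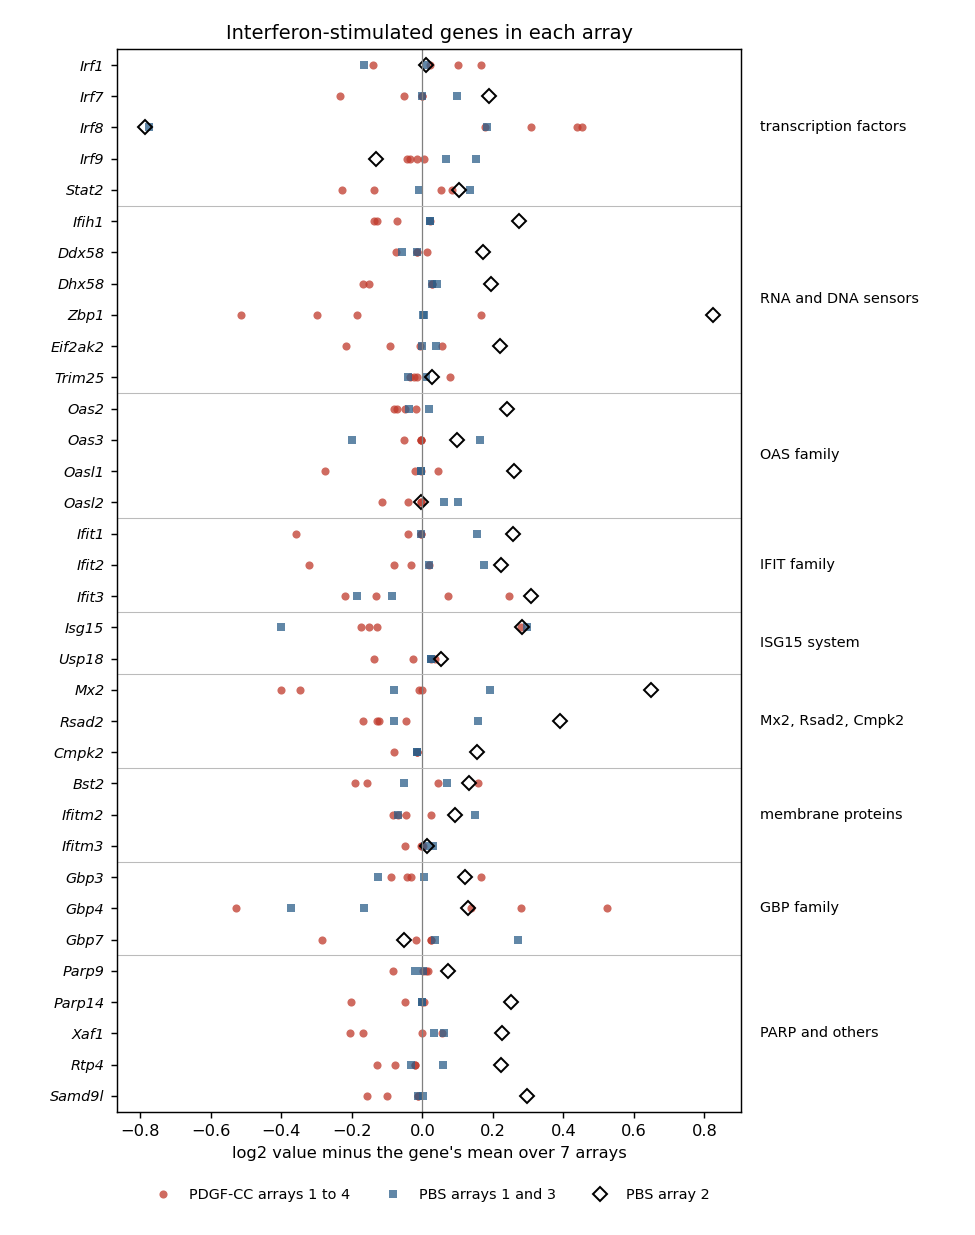
Log2 value of each of the 34 tested members in each array, minus that gene's mean over the 7 arrays, with members grouped by role and points that coincide drawn over each other. PBS array 2 (open diamonds) lies farthest right for 20 of the 34 genes, and Irf8 is the member with its lowest points in PBS arrays 2 and 3.

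A single control array held much of this difference. PBS array 2 had the highest value of the 7 arrays for 20 of 34 members, or 58.8%, where it was highest for 14.8% of all tested probe sets. No other array was highest for more than 4 members. The mean of the 34 members, each set against its own mean over the arrays, was 0.16 in PBS array 2, 0.0017 in PBS array 1 and -0.0050 in PBS array 3. In the PDGF-CC arrays 1 to 4 it was -0.057, -0.011, -0.053 and -0.038, so PBS arrays 1 and 3 lay just above them. Without PBS array 2, 25 members were negative with a median of -0.06, beside 53.8% negative and a median of -0.010 over all probe sets. Leaving out any other single array left between 28 and 30 members negative, with medians from -0.16 (without PBS array 1) to -0.10.

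**Figure D2:**
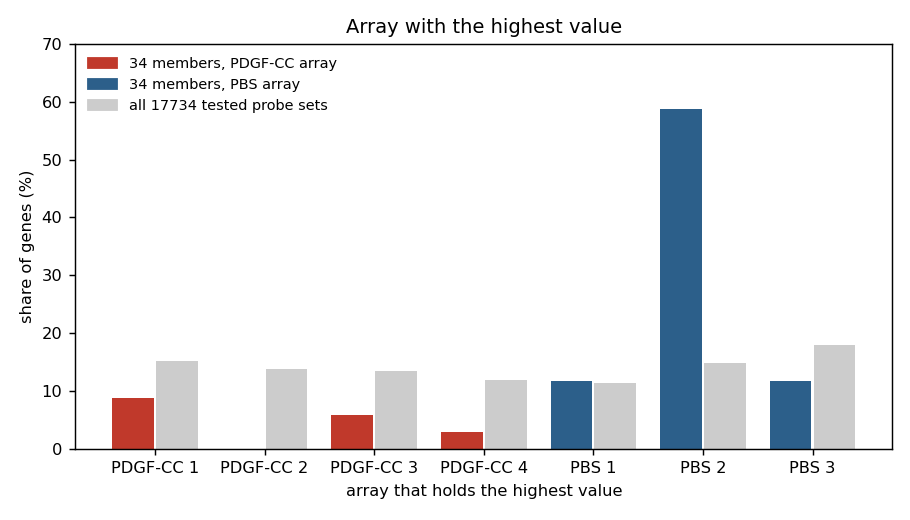
Share of genes, in percent, whose highest value lies in each array, for the 34 members (coloured) and for all 17734 tested probe sets (grey). PBS array 2 holds the highest value of 58.8% of members and of 14.8% of all probe sets.

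**Figure D3:**
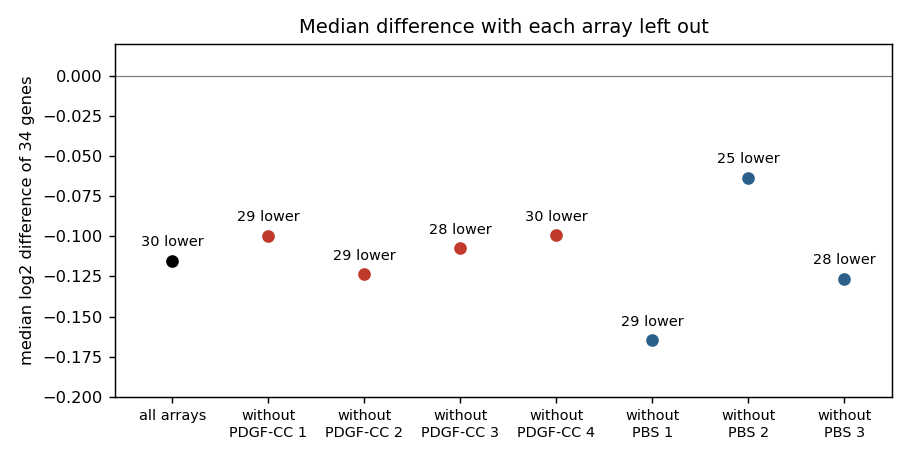
Median log2 difference of the 34 members, PDGF-CC minus PBS, with all arrays and with each array left out, and the number of negative members above each point. The median is nearest to 0 without PBS array 2, at -0.06 with 25 negative members.

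PBS array 2 also stood apart in microglial markers. Of 13 tested microglial markers, 12 had their lowest value there, against 18.1% of all tested probe sets, and 12 of 13 had a positive difference after PDGF-CC. Their summed signal on the linear scale ran from 12519 to 12950 in PDGF-CC arrays and from 7903 to 11960 in PBS arrays, with 7903 in PBS array 2, and none of these markers was near the bottom of the scale. Choroid plexus markers were negative in 7 of 7 with a median of -0.78, and 6 did not overlap, against 2.5% of all probe sets lower without overlap. Their summed signals were 5616 to 7667 in PDGF-CC and 8120 to 8800 in PBS arrays, the highest in PBS array 2. These sums are mostly Ttr, by far the brightest of the markers, which had the smallest difference (-0.26). Neutrophil and monocyte markers were negative in 8 of 9 with a median of -0.33. Their summed signals ran from 998 to 2226 in PDGF-CC and from 1356 to 3186 in PBS arrays, lowest in PDGF-CC array 4 and highest in PBS array 1. Pericyte markers were negative in 9 of 10 with a median of -0.26, and their sums ran from 8676 to 11131 and from 9937 to 11233. At an unadjusted p under 0.05 (limma), 7 of 7 choroid plexus markers and 2 of 10 pericyte markers were lower, against 3.41% of all probe sets. Among microglial markers 3 of 13 were higher, against 2.63%. Medians of the border macrophage, lymphocyte, astrocyte, neuron and smooth muscle lists ran from -0.03 (border macrophages) to +0.14 (smooth muscle). Endothelial markers, which define the vessel preparation, were well measured, with group means from 9.02 (Ly6c1) to 12.5 (Slc2a1), and 12 of 12 were tested. What part these cells had in the members' differences was not tested, and in fragments of tissue fewer cells of a type and less RNA per cell cannot be told apart.

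The factors that carry the interferon signal to genes were negative in 3 of 5, and none passed the test. Irf8, a factor that myeloid cells and microglia depend on, had the largest difference of any member. Its values were 9.27, 9.25, 9.12 and 8.99 in the PDGF-CC arrays 1 to 4 and 9.0, 8.03 and 8.04 in the PBS arrays 1 to 3. PBS arrays 2 and 3 were thus low and PBS array 1 was level with the lowest PDGF-CC array. The difference was +0.80 ± 0.24 (log2, SE, n = 4 and 3), or 1.75-fold, with an interval from 0.24 to 1.37 (limma, adjusted p = 0.769). Its second probe set gave 7.14, 6.96, 6.77 and 6.82 against 6.76, 6.23 and 6.43, which do not overlap, and a difference of +0.45 ± 0.14. The brighter probe set differed by +0.64 when PBS array 2 was left out and by +1.13 when PBS array 1 was. The mean relative level of the microglial markers was -0.51 in PBS array 2, 0.038 in PBS array 1 and 0.023 in PBS array 3, and ran from 0.087 to 0.15 in the PDGF-CC arrays. P2ry12, a purine receptor of microglia named after its values were seen, was low in PBS arrays 2 and 3, at 10.40 and 10.49, as Irf8 was. It was at 10.77 to 10.94 in the other arrays. Between PBS arrays 1 and 3 other microglial markers went both ways. Trem2 (8.18 and 8.37) and C1qa (10.23 and 10.40) were higher in PBS array 3, and Fcrls (9.84 and 9.72) was lower. What part the amount of microglial RNA had in the Irf8 difference was not tested.

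**Figure D4:**
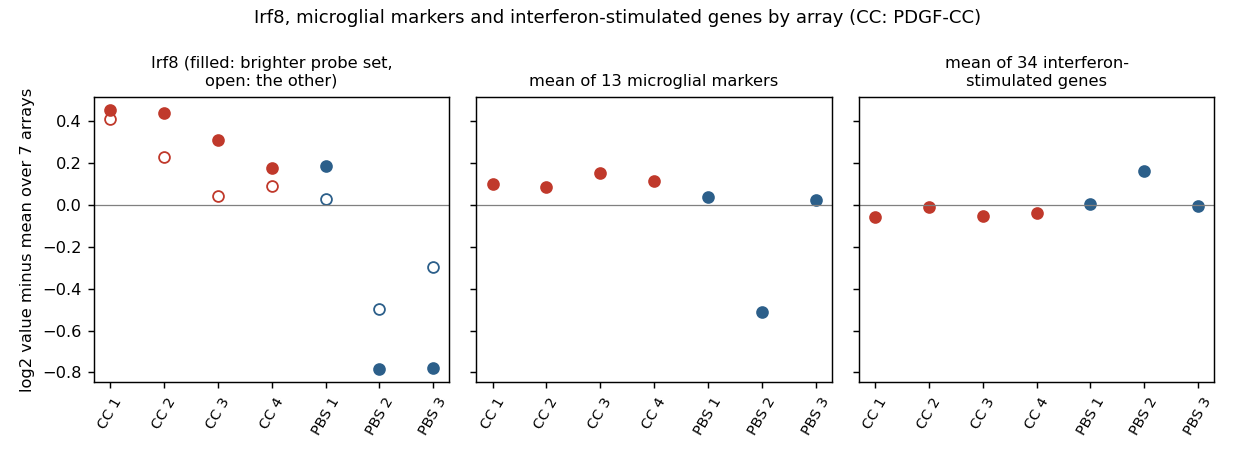
Log2 level of both Irf8 probe sets (left), mean of the 13 microglial markers (middle) and mean of the 34 members (right) in each array, each relative to its mean over the 7 arrays. Irf8 is low in PBS arrays 2 and 3, the microglial markers are low in PBS array 2, and the members' mean is highest in PBS array 2 at 0.16.

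Irf7, which amplifies type I interferon production, was measured at 7.57, 7.52, 7.34 and 7.57 after PDGF-CC and at 7.57, 7.76 and 7.67 after PBS. The groups met at 7.57, and the difference was -0.17 ± 0.079 (limma, adjusted p = 0.769). Stat2 and Irf9, which carry the type I interferon signal to the ISRE, differed by -0.13 ± 0.091 and -0.05 ± 0.073. Irf1, an early target of interferon gamma, differed by +0.09 ± 0.088. Without PBS array 3 Irf9 changed sign, to +0.0095.

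Sensors of foreign nucleic acid were negative in 5 of 6, from -0.06 (Ddx58) to -0.48 (Zbp1), and none passed the test. Zbp1, which binds Z-form nucleic acid and triggers cell death, had values of 7.20, 6.85, 6.51 and 6.73 in the PDGF-CC arrays and 7.03, 7.85 and 7.03 in the PBS arrays. PBS array 2 stood above every other array, and PDGF-CC array 1 lay above PBS arrays 1 and 3. The difference was -0.48 ± 0.24, with an interval from -1.06 to 0.09, and was -0.21 without PBS array 2. Ifih1, which encodes the RNA sensor MDA5, was at 8.55, 8.61, 8.55 and 8.70 against 8.70, 8.96 and 8.70, a difference of -0.18 ± 0.082 that came to -0.10 without PBS array 2. Dhx58, which encodes the related helicase LGP2, differed by -0.15 ± 0.078 and Eif2ak2, the kinase PKR that halts translation, by -0.15 ± 0.087. Ddx58, the sensor RIG-I, differed by -0.06 ± 0.067, and by +0.013 without PBS array 2. Trim25, the ubiquitin ligase that acts on RIG-I, differed by +0.0024 ± 0.052, with a sign that changed with the scaling (-0.018 with arrays centred on their median).

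Of the oligoadenylate synthetase family, part of which activates an RNase that cuts viral RNA, 4 of 4 tested members were negative. Relatives from the list of other interferon-stimulated genes, named here after their values were seen, went both ways. Oas1b (-0.24 ± 0.15) and Oas1g (-0.33 ± 0.27) were negative and Oas1c (+0.21 ± 0.084) was positive. Oas2 was at 6.69, 6.75, 6.68 and 6.72 after PDGF-CC and at 6.78, 7.0 and 6.73 after PBS, so PBS array 3 lay among the PDGF-CC arrays. Its difference was -0.13 ± 0.075, and -0.04 without PBS array 2. Oasl2 was at 7.83, 7.76, 7.87 and 7.87 against 7.98, 7.87 and 7.94, a difference of -0.09 ± 0.054. In this gene PBS array 2 was not the highest array. Oasl1 differed by -0.15 ± 0.10 and Oas3 by -0.04 ± 0.090, the latter at +0.034 with PBS array 1 left out and +0.0019 with PBS array 2 left out.

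The IFIT proteins bind viral RNA and stop its translation, and their genes were negative in 3 of 3, with PBS array 2 highest in each. Ifit1, whose promoter holds 2 ISRE cores as shown, was at 8.13, 8.49, 8.49 and 8.45 in PDGF-CC arrays and 8.49, 8.75 and 8.65 in PBS arrays. PDGF-CC array 1 was low, and the groups touched at 8.49. The difference was -0.24 ± 0.11 (limma, adjusted p = 0.769) and -0.18 without PBS array 2. Ifit2 was at 5.66, 6.00, 5.95 and 5.90 against 6.16, 6.20 and 6.00, a difference of -0.24 ± 0.096. Ifit3, a partner of Ifit1, differed by -0.02 ± 0.15 and by +0.13 without PBS array 2. Ifit3 has a close copy, Ifit3b (+0.07 ± 0.048), and probes of such copies can share signal, so its value is uncertain.

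Isg15 is a ubiquitin-like protein that is joined to others during the interferon response, and Usp18 removes it and also quiets the receptor. Isg15 was at 8.27, 7.81, 7.86 and 7.84 after PDGF-CC and at 7.59, 8.27 and 8.28 after PBS. PDGF-CC array 1 was as high as the upper PBS arrays, and PBS array 1 was the lowest of all. The difference was -0.10 ± 0.20, smaller than its error, and ran from -0.33 with PBS array 1 left out to +0.0094 and +0.017 with PBS arrays 2 and 3 left out. Usp18 was at 7.49, 7.66, 7.60 and 7.65 against 7.65, 7.68 and 7.65, a difference of -0.06 ± 0.058.

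The antiviral effectors Mx2 and Rsad2 had larger differences than most members, again with PBS array 2 highest. Mx2, a GTPase that hinders viral replication, was at 6.38, 6.39, 5.99 and 6.04 in PDGF-CC arrays and at 6.58, 7.04 and 6.31 in PBS arrays. PBS array 3 fell within the PDGF-CC range. The difference was -0.44 ± 0.19, with an interval from -0.89 to 0.0014 (limma, adjusted p = 0.769), and it was -0.25 without PBS array 2. Rsad2, which encodes viperin, was at 6.05, 6.17, 6.10 and 6.09 against 6.38, 6.61 and 6.14, where PBS array 3 lay below PDGF-CC array 2. Its difference was -0.27 ± 0.11 and -0.16 without PBS array 2. Cmpk2, a nucleotide kinase gene induced together with viperin, differed by -0.07 ± 0.060. Mx1 was too dim to be tested, with a mean of 4.14 in PDGF-CC and 4.07 in PBS against a filter of 4.145.

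The membrane proteins that hold back viral entry and release differed by about 0.10 or less. Ifitm3, which blocks fusion in endosomes, was at 11.85, 11.84, 11.80 and 11.84 after PDGF-CC and at 11.88, 11.86 and 11.85 after PBS. It was the 1 member of 34 whose groups did not overlap, against 4.3% of all tested probe sets (2.5% lower and 1.8% higher), and its difference was -0.03 ± 0.044 (limma, adjusted p = 0.870). That sign changed to +0.023 when quantile normalization was repeated over the tested probe sets. With arrays centred on their median, 10 members did not overlap, against 7.95% of all probe sets, and with quantile normalization 2, against 8.75%. With all probe sets of a gene averaged it was 2, against 4.42% of 15582 genes. Leaving out PDGF-CC arrays 1, 2, 3 and 4 in turn gave 4, 4, 2 and 4 such members, against 6.34%, 6.23%, 8.26% and 7.87% of all probe sets. Leaving out PBS arrays 1, 2 and 3 gave 9, 4 and 8, against 12.4%, 12.3% and 11.9%. Ifitm2, its neighbour in sequence and position, was at 11.22, 11.29, 11.19 and 11.20 against 11.42, 11.36 and 11.20, a difference of -0.10 ± 0.067. Bst2, which encodes tetherin, was at 9.13, 8.82, 8.79 and 9.02 against 8.92, 9.11 and 9.05, a difference of -0.09 ± 0.10. As near copies, Ifitm2 and Ifitm3 may share probe signal.

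Guanylate-binding proteins, large GTPases typical of interferon gamma, were negative in 2 of 3 tested members, and none passed the test. Relatives from the interferon gamma list, named here after their values were seen, went both ways: Gbp5 (+0.04 ± 0.16), Gbp9 (-0.02 ± 0.059) and Gbp10 (+0.02 ± 0.074). Gbp4 was at 6.73, 7.53, 7.78 and 7.39 after PDGF-CC and at 6.88, 7.38 and 7.09 after PBS. PDGF-CC array 1 was the lowest and the other PDGF-CC arrays were above the highest PBS array, and the difference was +0.24 ± 0.25, or +0.45 without PDGF-CC array 1. Gbp7 was at 8.46, 8.73, 8.77 and 8.77 against 8.78, 8.69 and 9.01, a difference of -0.15 ± 0.11. Gbp3 differed by -0.00011 ± 0.086, and by +0.022 with quantile normalization repeated. PBS array 2 was highest in 0 of these 3 members. They belong to a family of near copies and may share probe signal.

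Among the remaining members, PBS array 2 was highest in 5 of 5, and 5 of 5 were negative. Xaf1, a gene that favours cell death, was at 9.28, 9.12, 9.08 and 9.34 in PDGF-CC arrays and at 9.35, 9.51 and 9.32 in PBS arrays. PDGF-CC array 4 lay above PBS array 3, and the difference was -0.19 ± 0.087 (-0.13 without PBS array 2). Rtp4, a chaperone for receptors that also restrains viruses, was at 9.36, 9.25, 9.30 and 9.36 against 9.35, 9.61 and 9.44, a difference of -0.15 ± 0.072 that came to -0.08 without PBS array 2. Samd9l, a restriction factor for poxviruses, differed by -0.17 ± 0.090. Parp14 and Parp9, partners in ADP-ribosylation, differed by -0.14 ± 0.087 and -0.03 ± 0.052.

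**Figure D5:**
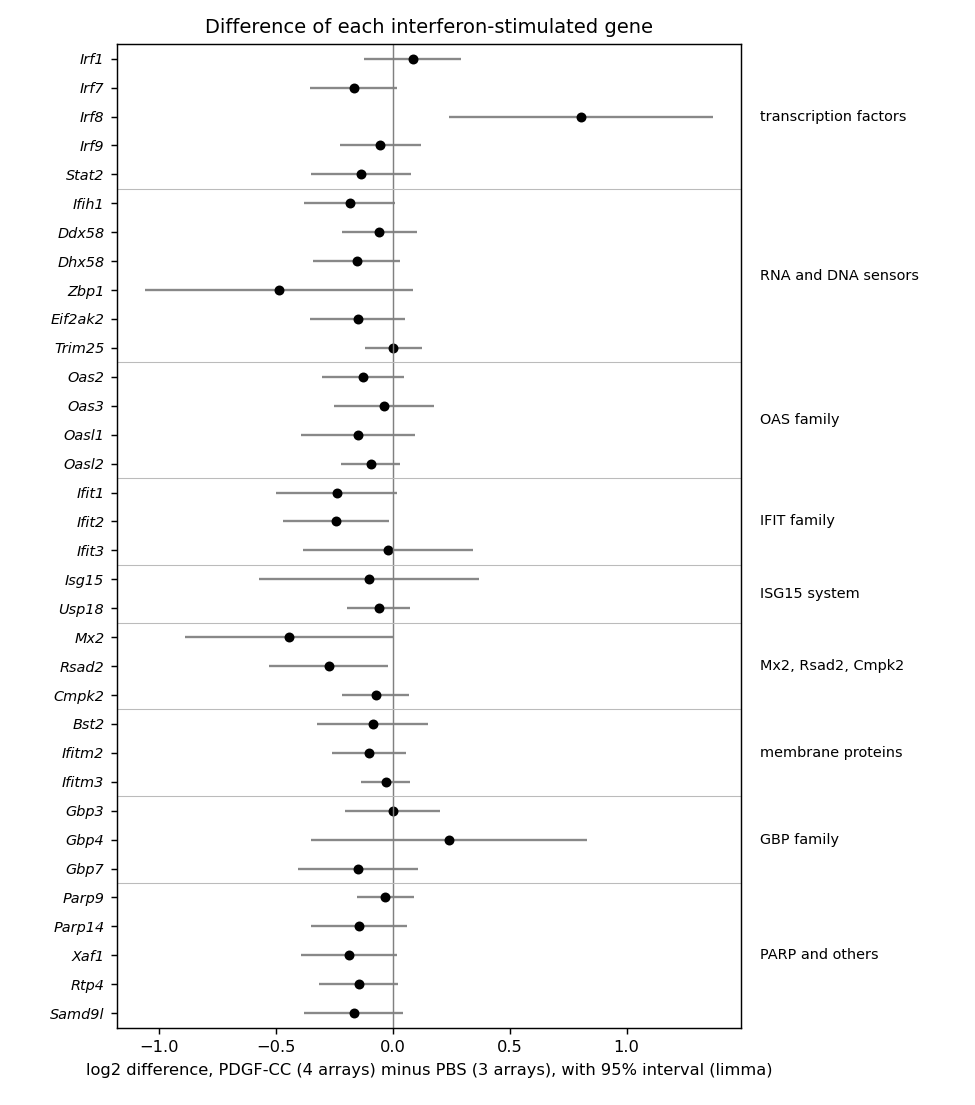
Log2 difference of each tested member, PDGF-CC minus PBS (4 and 3 arrays), with its 95% interval from limma and members grouped by role. The points run from -0.48 (Zbp1) to +0.80 (Irf8), and 31 of the 34 intervals include 0.

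Members with an ISRE core in their promoter windows were compared with those without, as a description. Of 14 tested members with the core, 14 were negative, with a median of -0.10 and a range from -0.27 to -0.00011. Of 11 with an entry but no core, 8 were negative, with a median of -0.09 and a range from -0.24 to +0.80. PBS array 2 was highest in 6 of the 14 and in 6 of the 11. Without that array, Ddx58 (+0.013), Ifit3 (+0.13) and Gbp3 (+0.061), all with the core, were positive, as were Isg15 and Oas3. The rest with the core and the 8 without it stayed negative, so the count of 14 of 14 rested on PBS array 2.

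Each sample's description holds a running number, 1 to 7 across the groups. Within numbers 1 to 4 (2 arrays of each group) the members' median difference was -0.12 with 28 negative, and within 5 to 7 (2 PDGF-CC arrays and 1 PBS array) it was -0.04 with 25 negative. PBS array 2 belongs to the first of these parts. Rsad2 differed by -0.38 and -0.05 in them, Zbp1 by -0.42 and -0.41 and Irf8 by +0.75 and +1.02. Whether the numbers mark an order of handling is not stated in the labels.

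Other interferon-stimulated genes came from a list of 48 that shares no gene with the members. Of 40 tested, 26 were negative and 14 positive, with a median of -0.03, and 0 passed the adjusted threshold. At an unadjusted p under 0.05, 4 were lower and 2 higher, against 3.41% and 2.63% of all probe sets. PBS array 2 was highest in 13 of the 40, or 32.5%, against 14.8% of all tested probe sets. Their mean relative level was also highest there, at 0.15, with 0.086 in PBS array 1. Helz2, a helicase and coactivator, had the smallest p of that list, with values of 7.42, 7.44, 7.39 and 7.46 in PDGF-CC arrays and 7.67, 7.66 and 7.82 in PBS arrays. Here the groups lay well apart and no single array set the gap: the difference was -0.29 ± 0.057 and ran from -0.31 to -0.24 with 1 array left out (limma, adjusted p = 0.722). Trim30a, a negative regulator of inflammatory signalling, was at 6.12, 6.28, 6.23 and 6.40 against 6.76, 6.58 and 6.50, a difference of -0.36 ± 0.090 without overlap. Phf11d (-0.16 ± 0.058) and Sp100, a protein of nuclear bodies (-0.18 ± 0.071), did not overlap either. Slfn8, named here after its values were seen, was the 1 gene of the list without overlap and higher (+0.31 ± 0.12). Of the 40, 4 thus lay lower without overlap and 1 higher, against 2.5% and 1.8% of all probe sets.

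Genes typical of interferon gamma, from a list of 23, were close to balanced. Of 15 tested, 9 were negative and 6 positive, with a median of -0.01, and 0 were called. PBS array 2 was highest in 4 of them, or 26.7%, against 14.8% of all tested probe sets. Their mean relative level was also highest in that array, at 0.27, with 0.14 in PDGF-CC array 2. Cxcl9, a chemokine for T cells, was at 6.49, 6.82, 6.10 and 5.72 after PDGF-CC and at 6.75, 8.22 and 6.37 after PBS. PBS array 2 was far above the rest, and the difference of -0.83 ± 0.47 was -0.28 without it. Iigp1, a GTPase that acts on parasite vacuoles, differed by -0.26 ± 0.097. Ciita, the master regulator of class II antigen presentation, differed by +0.19 ± 0.13 and Batf2 by +0.10 ± 0.12.

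A list of 21 signalling genes held interferons, their receptors, the Jak kinases and regulators of the pathway. Of 17 tested, 11 were positive and 6 negative, with a median of +0.10, and 0 were called. PBS array 2 was the lowest array in 9 of these 17, against 18.1% of all tested probe sets. Ifnar2, a chain of the type I interferon receptor, was at 10.93, 10.84, 10.81 and 10.83 after PDGF-CC and at 10.76, 10.67 and 10.71 after PBS. The groups did not overlap, and the difference was +0.14 ± 0.053 (limma, adjusted p = 0.769). Ifngr2, of the interferon gamma receptor, was at 8.60, 8.47, 8.47 and 8.44 against 8.44, 7.99 and 8.36, a difference of +0.23 ± 0.11 that came to +0.09 without PBS array 2. Ptpn6, a phosphatase of blood cells and microglia that damps Jak signalling, differed by +0.43 ± 0.23 (+0.27 without PBS array 2) and the interferon gene Ifnk by +0.32 ± 0.18. Ifnb1, Ifng and Ifne were below the filter and were not tested.

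Sensing genes upstream of interferon showed no common direction, with 8 of 14 negative, a median of -0.01 and 0 called. Tlr9, a receptor for DNA in endosomes, was at 7.74, 7.65, 7.63 and 7.76 in PDGF-CC arrays and at 7.56, 7.14 and 7.31 in PBS arrays. Its groups did not overlap, and the difference was +0.36 ± 0.10, or +0.26 without PBS array 2. Tlr7, a receptor for RNA, differed by -0.19 ± 0.12, Tlr3 by -0.11 ± 0.097 and Sting1, an adaptor in DNA sensing, by +0.12 ± 0.067.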

How the data were processed

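Members, lists and the naming rule were chosen with earlier results of these data known. The deposited values were taken as log2 signals, from how they range and how alike the arrays' distributions are. The submitters' processing notes list RMA, limma and Affymetrix Expression Console, in no order and with no version; build and settings were not given in the sources used here. RMA equalises the distributions of arrays, so a difference in overall RNA level is removed. At least 2 arrays held exactly the same value for 63.6% of tested probe sets and 47.1% of tested members. Arrays correlated at 0.987 to 0.994.

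Of 33793 probe sets, 23521 had 1 gene symbol, 1814 several and 8458 none. Of 237 list entries, 217 were matched. Those named and brighter on average than the 30th percentile (4.145) were tested with limma 3.58.1 (lmFit, eBayes; R version 4.3.3), 2-sided, without covariates, with Benjamini-Hochberg adjustment over all 17734 probe sets. The code was tested on simulated data. Arrays have no sequencing depth; precision is limited by their number. Every member was named; values of every array were given for members whose groups do not overlap and for the 2 with the smallest p of each role group, and for the other lists up to 4 genes with the smallest p were named. Alternatives covered filters, priors, normalization, weights, covariates, blocks and each array left out. Figures used matplotlib 3.10.9.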

Additional observations from a re-analysis of the deposited data

Results flagged for a closer look

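In the PDGF-CC group of 4 arrays, 1 array stood apart from the others in 10 of 50 genes examined by more than Dixon's 95% critical value, where chance gives about 1 in 20. PDGF-CC array 1 was the array apart in 5 genes. It was high for Isg15 (8.27, the others 7.81 to 7.86) and Trim25 (8.98, the others 8.86 to 8.88), and low for Ifit1 (8.13, the others 8.45 to 8.49), Gbp7 (8.46, the others 8.73 to 8.77) and Tlr3 (8.65, the others 8.98 to 9.03). PDGF-CC array 4 was low for Parp9 (7.74, the others 7.82 to 7.83) and Cmpk2 (7.41, the others 7.47). PDGF-CC array 3 was low for Ifitm3 (11.80, the others 11.84 to 11.85) and Oas3 (5.13, the others 5.18). PDGF-CC array 2 was high for Sting1 (8.62, the others 8.47 to 8.48). For Cmpk2 and Oas3 the other arrays held exactly the same value, so any distance would stand apart.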

How the results depend on the processing

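No member was called under any of the 17 alternatives run, and their median difference stayed negative in each, from -0.16 to -0.06 with an array left out and from -0.14 to -0.09 otherwise. The number of negative members ran from 25 to 30 with an array left out and from 28 to 31 otherwise. A change of filter or prior leaves each gene's difference as it was, so those settings could not alter a sign. Averaging probe sets alters only Irf8 among the members. Probe sets called over all tested came to 3 with a 50th-percentile filter, a trended and robust prior or arrays centred on their median, to 1 with repeated quantile normalization, and to 0 to 1 with an array left out. Members that did not overlap numbered 10 with centred arrays (7.95% of all probe sets), 2 with repeated quantile normalization (8.75%) and 2 with all probe sets of a gene averaged (4.42% of genes), and 2 to 9 with an array left out (6.23% to 12.4%); the cause was not tested. Signs changed for Trim25 (-0.018 with centred arrays, -0.0065 with array weights, -0.013 with description number as a covariate), Ifitm3 (+0.023 with repeated quantile normalization), Ifit3 (+0.053 with array weights) and Gbp3 (+0.022 with repeated quantile normalization, +0.061 with array weights, +0.036 with description number). With an array left out, ranges were -0.024 to +0.017 for Trim25, -0.12 to +0.13 for Ifit3, -0.062 to +0.061 for Gbp3, -0.15 to +0.034 for Oas3, -0.10 to +0.013 for Ddx58, -0.33 to +0.017 for Isg15 and -0.13 to +0.0095 for Irf9. Groups share replicate numbers in their titles, and same-numbered arrays deviated together with correlations of 0.16, 0.11 and 0.084. That was the best match for PBS arrays 1 and 2, while PBS array 3 went best with PDGF-CC array 4 (0.32). PBS arrays 1 and 2 correlated positively with PDGF-CC arrays 1 and 2 (0.040 to 0.16) and negatively with 3 and 4 (-0.22 to -0.0075). PBS array 3 was positive with PDGF-CC arrays 3 and 4 and negative with 1 and 2 (-0.22 and -0.14). Deviations within a group sum to 0, so the signs of PBS array 3 were largely set by those of PBS arrays 1 and 2. For the same reason each PBS array had to show both signs. The signs of PBS arrays 1 and 2 followed the parts of the running description numbers, and those of PBS array 3 add little to this. Same-numbered arrays also lie in the same part, so these values cannot tell whether they share more than that. With the replicate block 0 probe sets were called and the members' median was -0.10 with 30 negative. PDGF-CC array 4 is alone in its block, so this fit gives the same differences as leaving that array out.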
